A study of Homo sapiens with 6 samples.

Results

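The Fanconi anaemia and homologous recombination repair genes described here are 42 genes whose products repair DNA interstrand crosslinks and double-strand breaks. They were taken by symbol after the Ensembl identifiers of a table of 63086 genes had been matched to GENCODE, and all 42 had counts high enough to be among the 16046 genes tested. Their transcripts were compared between wild-type A375 cells and A375 cells with a knockout of DUS1L, in 3 libraries each. A375 is an established human melanoma line, and the DUS1L protein is a dihydrouridine synthase, which reduces uridines in tRNA. The knockout was made with CRISPR/Cas9 followed by selection of clones, and the wild-type cells were cultured alongside and not edited. How many clones were used was not stated, so the loss of DUS1L and traits of a selected clone cannot be told apart. The submitters call the libraries biological replicates, and p-values measure only the spread between them.

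The Fanconi core complex is a ubiquitin ligase assembled at stalled replication forks, with FANCL as its catalytic subunit and UBE2T as the conjugating enzyme that works with it. It attaches ubiquitin to FANCD2 and FANCI, which clamp onto DNA together as the ID2 complex, and USP1 removes that ubiquitin again. Nucleases release the crosslink, and the broken end is resected and repaired from the sister chromatid by homologous recombination, in which BRCA1, PALB2 and BRCA2 load the recombinase and BLM with its partners dissolves the joined molecules. Cells use these steps mainly in S and G2 phase.

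The libraries held between 17121315 and 18861514 estimated counts. Levels are given as CPM, counts scaled to library size, and a floor of 3 counts corresponds to 0.159 to 0.176 CPM. Wild-type replicate 1 stood apart from the other wild-type libraries on the second principal component, at 31.6 against -15.5 and -16.3. The DUS1L transcript was at 80.0, 75.7 and 77.0 CPM in wild-type cells against 55.4, 54.7 and 53.1 CPM after knockout, and the groups did not overlap (log2 fold change -0.51, SE 0.06, edgeR adjusted p = 1.7e-06). Summed melanocyte markers were between 617.5 and 652.4 CPM in wild-type and between 483.0 and 549.3 CPM in knockout cells. Most of that sum was SOX10, while TYR had no count and MLANA, PMEL and DCT stayed under 1 CPM in every library. Summed leukocyte markers were at 3.41 to 4.59 CPM in wild-type cells and 7.45 to 13.0 CPM after knockout, mostly ITGAM, with CD3E at 0. Fibroblast markers summed to 40.9 to 106.7 and 84.5 to 183.7 CPM, keratinocyte markers to 53.2 to 58.9 and 50.1 to 59.3 CPM with KRT5 and KRT1 at 0, and endothelial markers to at most 3.93 CPM. The part of these other markers in the results was not tested.

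DUS1L knockout cells had less transcript of 20 of the 42 repair genes, and none was called higher, at an edgeR adjusted p under 0.05. Of all genes tested, 20.7% were called lower and 20.5% higher. The 20 lower genes were at 61.1% to 86.0% of their wild-type level, with a median log2 fold change of -0.41. No member passed the test against a change of 1.5-fold, which 1.27% of all genes passed as lower and 2.31% as higher. At an unadjusted p under 0.05, edgeR called 0 members higher and passed 1, FANCL, against 1.5-fold, and DESeq2 and limma-voom gave 0 for both. Over all 42 members the median log2 fold change was -0.24, against -0.004 over all genes tested, and 35 members had a value below 0. The knockout values lay wholly below the wild-type values in 23 members and wholly above in 0, where all genes tested gave 25.8% and 25.4%. Beside the 20 called genes these were MUS81, BARD1 and EXO1.

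**Figure D1:**
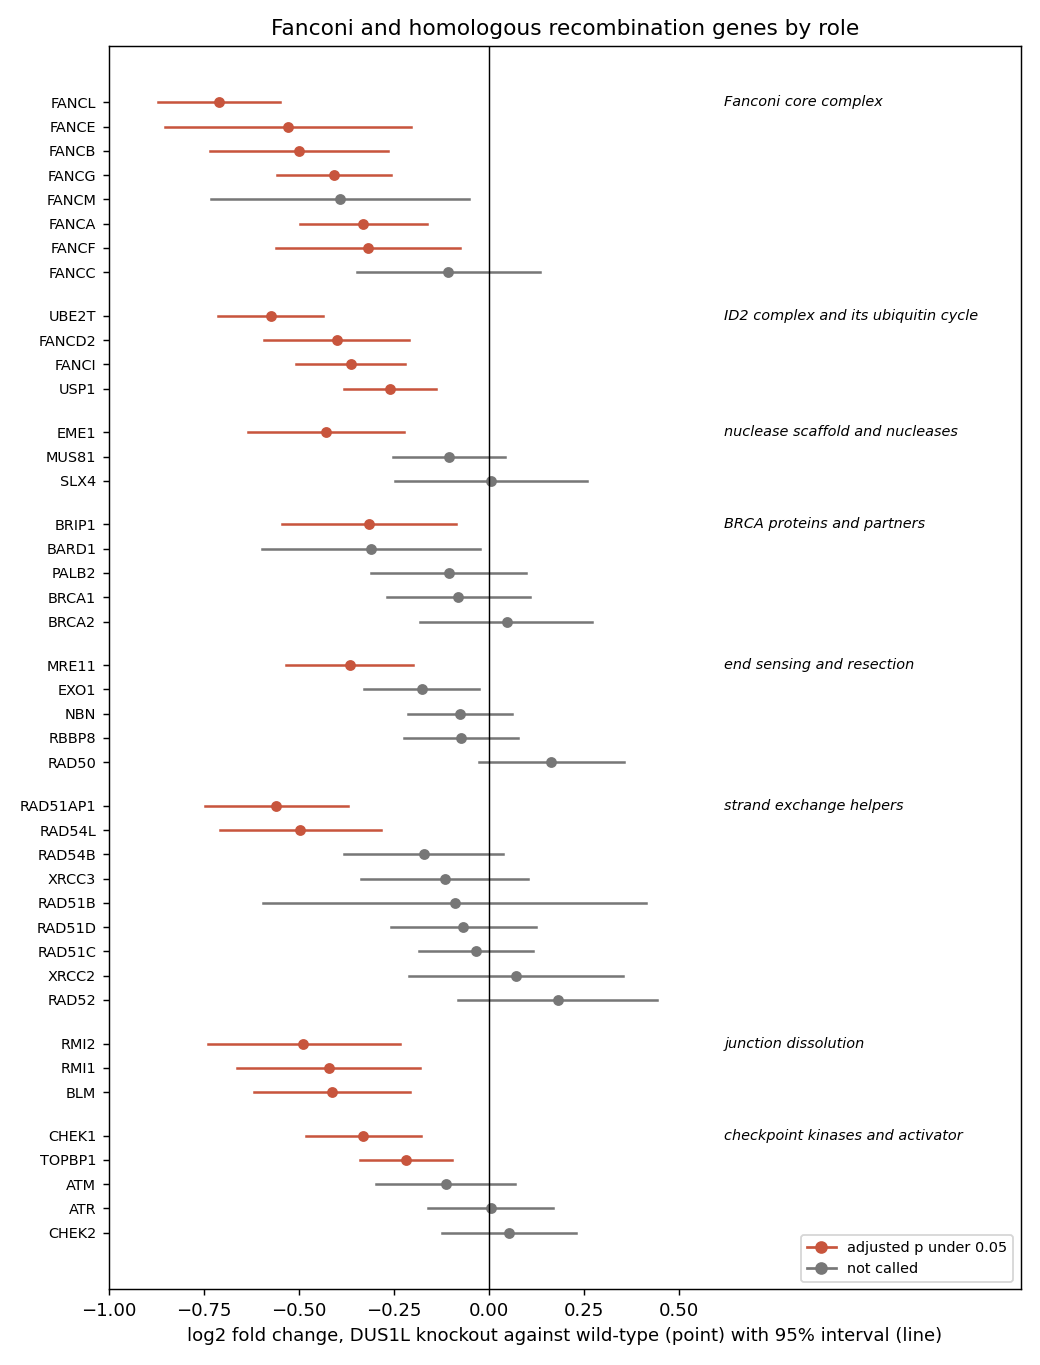
The log2 fold change of each member (x axis, knockout against wild-type) with its 95% interval, grouped by role. Red members passed an adjusted p under 0.05, and all 20 of them lie below 0, while grey members did not pass.

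Of the 8 members in the Fanconi core complex, 6 fell. The partner genes FAAP100, FAAP20 and FAAP24 are no members and were not called. Their log2 fold changes were -0.07, -0.12 and 0.075 (edgeR adjusted p = 0.548, 0.342 and 0.74). CENPX and CENPS, also partner genes outside the members, were called lower (log2 fold change -0.37 and -0.24, edgeR adjusted p = 0.00888 and 0.0474). The CENPS call was lost in 13 of 15 alternatives and the CENPX call in 3. FANCL, the ubiquitin ligase subunit (chromosome 2, 58159243 to 58241410, minus strand, GRCh38), was at 50, 47.6 and 44.8 CPM in wild-type cells against 30.6, 28.0 and 28.4 CPM after knockout. Every knockout value lay well under the lowest wild-type value, and the change was the largest decrease among the members (log2 fold change -0.71, SE 0.08, edgeR adjusted p = 3.81e-07). FANCG, an adaptor subunit, was at 48.4 ± 1.38 CPM in wild-type cells and 36.4 ± 1.38 CPM after knockout (SD, n = 3 each, log2 fold change -0.41, SE 0.07, edgeR adjusted p = 0.000121). FANCB and FANCA, further subunits of the core, fell by 0.50 and 0.33 on the log2 scale (SE 0.11 and 0.08). FANCE, which contacts FANCD2, was at 7.52, 9.48 and 9.89 CPM in wild-type cells against 6.54, 6.13 and 5.98 CPM after knockout. These groups did not overlap either (log2 fold change -0.53, SE 0.15, edgeR adjusted p = 0.00942).

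FANCF, an adaptor of the same complex, had the smallest decrease of the called core genes. It was at 13.7, 14.3 and 14.1 CPM in wild-type cells against 11.3, 10.6 and 11.8 CPM after knockout (log2 fold change -0.32, SE 0.12, edgeR adjusted p = 0.0327). All 3 knockout values were below the wild-type values, but the call was lost with DESeq2 (adjusted p = 0.0689) and with library size alone as the scaling (edgeR adjusted p = 0.0658). It was also lost without wild-type replicate 2 or 3 or knockout replicate 1 or 2 (edgeR adjusted p from 0.07 to 0.0984). FANCM, the helicase that anchors the complex to DNA, was at 17, 13.7 and 16.9 CPM in wild-type cells against 8.87, 12.5 and 14.9 CPM after knockout. Its groups overlapped and it was not called (log2 fold change -0.39, SE 0.16, edgeR adjusted p = 0.0607). FANCM was called lower in 7 of 15 alternatives, among them without knockout replicate 3 (log2 fold change -0.57, edgeR adjusted p = 0.0112), while without knockout replicate 1 its log2 fold change was -0.21. FANCC, the partner of FANCE, was at 15.1 ± 1.5 CPM in wild-type cells and 14 ± 0.916 CPM after knockout (SD, n = 3 each), with a 95% interval of -0.35 to 0.13 for the log2 fold change.

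All 4 members of the ID2 complex and its ubiquitin cycle fell, and in none did the groups overlap. WDR48, the activating partner of USP1, is no member. It was called higher (log2 fold change 0.18, edgeR adjusted p = 0.0349), though not in every alternative. Of 13 Fanconi partner genes that are no members, 5 were called lower (38.5%, against 20.7% of all genes tested) and 2 higher. ATAD5 and UHRF1 were among the lower ones (log2 fold change -0.354 and -0.405, edgeR adjusted p = 0.0137 and 0.0364). Their calls were lost in 2 and 5 alternatives. UBE2T was at 104.9, 94.4 and 91.4 CPM in wild-type cells against 61.6, 66.2 and 67.4 CPM after knockout, which is 67.2% of the wild-type level (log2 fold change -0.57, SE 0.07, edgeR adjusted p = 8.3e-07). Both clamp subunit genes were lower. FANCD2 was at 33.8, 33.8 and 33.3 CPM in wild-type cells against 27.9, 22.0 and 26.5 CPM after knockout (log2 fold change -0.40, SE 0.09, edgeR adjusted p = 0.00139). FANCI was at 80.7, 90.4 and 88.1 CPM in wild-type cells against 68.9, 61.4 and 71.2 CPM after knockout (log2 fold change -0.36, SE 0.07, edgeR adjusted p = 0.000233). The deubiquitinase gene USP1 had the smallest change of the 4, at 102.7, 100.6 and 107.9 CPM in wild-type cells against 85.3, 85.5 and 89.1 CPM after knockout (log2 fold change -0.26, SE 0.06, edgeR adjusted p = 0.00112).

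Of the nuclease genes, EME1 fell while MUS81 and SLX4 were not called. EME1, a partner with which MUS81 cuts DNA, was at 23.9, 21.4 and 24.1 CPM in wild-type cells against 16.7, 18.1 and 16.8 CPM after knockout, with no overlap (log2 fold change -0.43, SE 0.10, edgeR adjusted p = 0.00147). MUS81 was at 44.2 ± 1.09 CPM in wild-type cells and 41.1 ± 0.954 CPM after knockout (SD, n = 3 each). Its groups did not overlap either, and its 95% interval was -0.25 to 0.04. EME2, the alternative partner of MUS81, is no member and was not called (28.3 ± 2.27 CPM in wild-type cells and 29.5 ± 0.499 CPM after knockout, SD, n = 3 each, log2 fold change 0.06, edgeR adjusted p = 0.616). SLX4, the scaffold on which several nucleases gather, was at 20.2 ± 4.24 CPM in wild-type cells and 20.3 ± 0.043 CPM after knockout (SD, n = 3 each).

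Among BRCA1, BRCA2 and their partners, BRIP1 was the gene called. This share, 1 of 5 members, was near the 20.7% of all genes called lower. BRIP1, a helicase that binds BRCA1, was at 17.7, 20.6 and 16.9 CPM in wild-type cells against 15.0, 15.1 and 14.2 CPM after knockout (log2 fold change -0.32, SE 0.11, edgeR adjusted p = 0.0258). The groups did not overlap, but the call was lost without wild-type replicate 2 (edgeR adjusted p = 0.154), knockout replicate 1 (0.0531) or knockout replicate 3 (0.088), and with library size alone (0.0535). BARD1, which forms a ubiquitin ligase with BRCA1, was at 11.1 ± 0.425 CPM in wild-type cells and 8.93 ± 1.29 CPM after knockout (SD, n = 3 each, edgeR adjusted p = 0.0765). BRCA1 was at 40.2, 50.4 and 52.9 CPM in wild-type cells against 47.4, 42.5 and 45.9 CPM after knockout. The lowest of these values belongs to wild-type replicate 1, and without that library BRCA1 was called lower (log2 fold change -0.19, edgeR adjusted p = 0.0475, against -0.08 and 0.513 with all libraries). BRCA2 had a log2 fold change of 0.05 (95% interval -0.18 to 0.27). PALB2, which bridges BRCA1 and BRCA2, had -0.11 (-0.31 to 0.10).

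End sensing and resection genes had 1 call among 5, a share near the 20.7% of all genes called lower. MRE11, the nuclease of the MRN complex, was at 47.0, 44.8 and 45.6 CPM in wild-type cells against 34.7, 32.4 and 39.4 CPM after knockout, so the highest knockout value lay below the lowest wild-type value (log2 fold change -0.37, SE 0.08, edgeR adjusted p = 0.000953). The other MRN subunit genes were not called. RAD50, the ATPase that tethers DNA ends, was at 37.0 ± 5.55 CPM in wild-type cells and 41.5 ± 0.863 CPM after knockout, with a 95% interval of -0.03 to 0.36. NBN, which recruits ATM, was at 74.4 ± 1.83 CPM in wild-type cells and 70.6 ± 4.97 CPM after knockout (SD, n = 3 each). EXO1, a long-range resection exonuclease, was at 44.3, 41.4 and 43.3 CPM in wild-type cells against 37.6, 39.0 and 37.4 CPM after knockout, with no overlap but short of the threshold (log2 fold change -0.18, SE 0.07, edgeR adjusted p = 0.0556). RBBP8, which starts resection together with MRN, had a 95% interval of -0.22 to 0.08.

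Of 9 strand exchange members, RAD51AP1 and RAD54L fell and the others were not called. This share of 22.2% was near the 20.7% of all genes called lower. RAD51AP1, a DNA-binding stimulator of strand invasion, was at 35.0, 34.8 and 35.4 CPM in wild-type cells against 24.4, 20.8 and 26.2 CPM after knockout (log2 fold change -0.56, SE 0.09, edgeR adjusted p = 4.72e-05). Its wild-type values were close together and all above the knockout values. RAD54L, a motor protein that remodels DNA during strand exchange, was at 25.7, 29.2 and 32.9 CPM in wild-type cells against 20.7, 22.4 and 19.2 CPM after knockout, again without overlap (log2 fold change -0.50, SE 0.10, edgeR adjusted p = 0.000509). The related motor gene RAD54B was at 25.4 ± 0.813 CPM in wild-type cells and 22.6 ± 3.03 CPM after knockout (SD, n = 3 each). It was called lower without knockout replicate 2 (log2 fold change -0.28, edgeR adjusted p = 0.0423, against -0.17 and 0.185 with all libraries).

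The genes of the BCDX2 and CX3 paralog complexes, which help to build and stabilise the recombinase filament, were not called. Their log2 fold changes were -0.03 for RAD51C (95% interval -0.18 to 0.12), -0.07 for RAD51D (-0.26 to 0.12), 0.07 for XRCC2 (-0.21 to 0.35) and -0.12 for XRCC3 (-0.34 to 0.10). RAD51B, the least abundant member at 3.08 ± 0.574 CPM in wild-type cells, had a wide interval of -0.59 to 0.41. RAD52, an annealing protein gene, had the highest log2 fold change of the 42, 0.18 (95% interval -0.08 to 0.44, edgeR adjusted p = 0.262).

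All 3 members for the dissolution of joined DNA molecules fell. TOP3A, the topoisomerase that works with them, is no member and was called higher (log2 fold change 0.22, edgeR adjusted p = 0.0107). BLM, the helicase of the complex, was at 32.6, 31.4 and 27.1 CPM in wild-type cells against 21.2, 21.8 and 25.6 CPM after knockout (log2 fold change -0.41, SE 0.10, edgeR adjusted p = 0.00205). RMI1 and RMI2 encode the accessory subunits. RMI1 was at 17.9, 21.1 and 21.9 CPM in wild-type cells against 17.2, 13.4 and 14.9 CPM after knockout (log2 fold change -0.42, SE 0.12, edgeR adjusted p = 0.00593). RMI2 was at 17.4, 19.2 and 17.6 CPM in wild-type cells against 12.9, 10.8 and 14.9 CPM after knockout (log2 fold change -0.49, SE 0.12, edgeR adjusted p = 0.00282). The gap between the groups was narrow for BLM and RMI1, where the highest knockout value lay just under the lowest wild-type value.

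Among the checkpoint members, CHEK1 and TOPBP1 fell and 3 were not called. CHEK1, the kinase that ATR activates at stalled forks, was at 59.6, 70.1 and 70.7 CPM in wild-type cells against 54.6, 51.9 and 52.8 CPM after knockout (log2 fold change -0.33, SE 0.07, edgeR adjusted p = 0.001). TOPBP1, an activator of ATR, was at 116.5, 112.1 and 110.0 CPM in wild-type cells against 93.8, 94.8 and 102.6 CPM after knockout and had the smallest change of all called members (log2 fold change -0.22, SE 0.06, edgeR adjusted p = 0.00505). Neither gene's groups overlapped. ATR was at 39.6 ± 2.04 CPM in wild-type cells and 39.7 ± 3.05 CPM after knockout (SD, n = 3 each, 95% interval -0.16 to 0.17). ATM, the kinase of double-strand breaks, and its target kinase CHEK2 had intervals of -0.30 to 0.07 and -0.12 to 0.23.

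**Figure D2:**
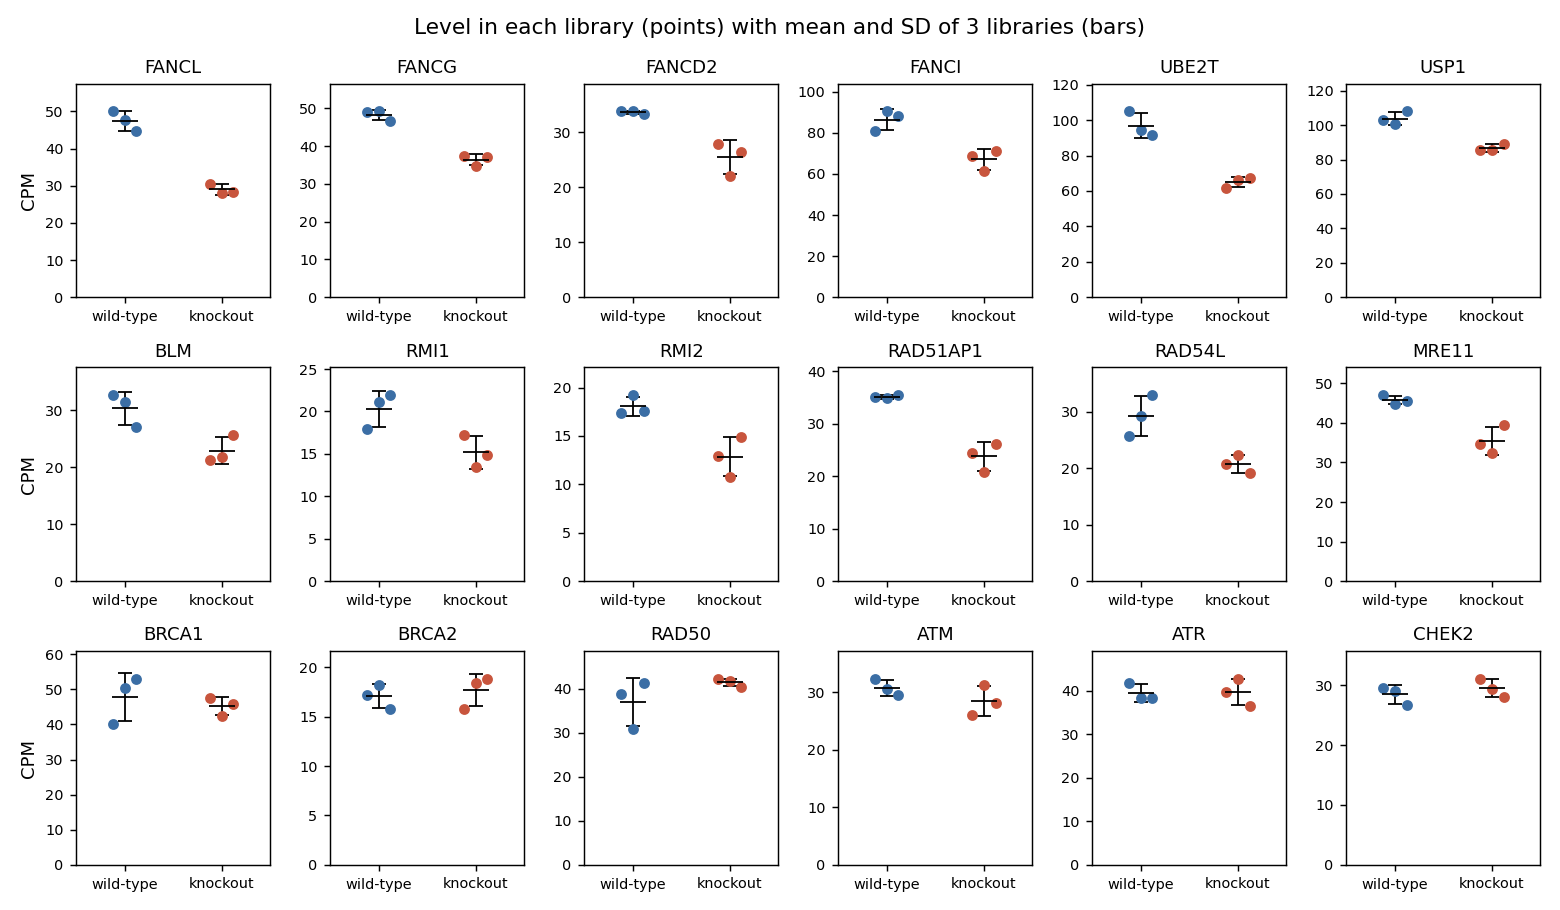
Level in CPM (y axis, from 0) of 18 members in each of the 3 wild-type (blue) and 3 knockout (red) libraries, with mean and SD as bars. The groups do not overlap in the 12 genes of the upper rows, whereas they overlap in BRCA1, BRCA2, RAD50, ATM, ATR and CHEK2.

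Per kilobase of canonical transcript, wild-type levels of the members ranged from 1.43 CPM per kb for BRCA2 to 110.4 CPM per kb for UBE2T. USP1 and FANCL followed UBE2T at 28.8 and 28.6 CPM per kb. RAD51B and BARD1 were the next lowest after BRCA2, at 1.97 and 2.02 CPM per kb.

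Exons of another gene cover more than 20% of the transcript in 7 members, and the strand setting of the counting was not given, so their counts may hold reads of the neighbour. VRK2, on the strand opposite FANCL, covers 27.3% of its transcript and was not called (log2 fold change -0.09, edgeR adjusted p = 0.496). LRRC59, which covers 23.2% of EME1, was at 351.5 CPM in wild-type cells, against 23.2 CPM for EME1. LRRC59 was higher after knockout (log2 fold change 0.16, edgeR adjusted p = 0.0144), opposite to EME1. ZNF276 over FANCA and LRRC41 over RAD54L each had a log2 fold change of -0.06 and were not called. In wild-type cells ZNF276 was at 36.7 CPM against 35.8 CPM for FANCA, and LRRC41 at 122.1 CPM against 29.3 CPM for RAD54L. Smaller overlaps included neighbours called lower. STT3A covers 1.3% of CHEK1 on the same strand (269.2 CPM in wild-type cells, log2 fold change -0.285, edgeR adjusted p = 0.000114). CFL1 covers 7.0% of MUS81 (1292.0 CPM in wild-type cells, log2 fold change -0.155, edgeR adjusted p = 0.0308). AOPEP over FANCC was also called lower (log2 fold change -0.517, edgeR adjusted p = 3.33e-05). POLG over FANCI and GAS2 over FANCF were not called. RAD50 shares 91.0% of its transcript with another protein-coding gene model on the same strand, RAD54B shares 65.5% with FSBP on the same strand, and XRCC3 shares 34.2% with KLC1, so the levels of these 3 are uncertain. BRCA1, CHEK2, FANCD2, MRE11, RAD51AP1, RAD52 and RBBP8 have annotated pseudogenes that could take or give reads.

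Partner transcripts were also compared by their ratio within each library, a measure that does not depend on library scaling, for 12 pairs chosen after the levels had been seen. In 7 pairs the knockout ratios lay wholly below the wild-type ratios. In each of these the first gene was called lower and its partner was not, while the other pairs joined genes with the same call. The ratios therefore largely restate those calls and are no separate support. The share of such ratios over other gene pairs was not determined. With 3 libraries against 3, the exact two-sided permutation test cannot give a p below 0.1, which these 7 pairs reached, and adjusted over the 12 pairs it was 0.171. TOP3A, the topoisomerase that works with BLM, RMI1 and RMI2, was itself higher, at 65.7, 64.6 and 72.5 CPM in wild-type cells against 78.1, 75.8 and 81.9 CPM after knockout (log2 fold change 0.22, SE 0.07, edgeR adjusted p = 0.0107). Its call was lost on leaving out wild-type replicate 2 (edgeR adjusted p = 0.0686) or knockout replicate 3 (edgeR adjusted p = 0.0667). The BLM to TOP3A ratio was 0.496, 0.487 and 0.374 in wild-type cells against 0.271, 0.287 and 0.312 after knockout. The mean ratio to TOP3A was 0.301 ± 0.0269 in wild-type against 0.193 ± 0.0235 for RMI1, and 0.268 ± 0.0277 in wild-type against 0.163 ± 0.0197 for RMI2 (SD, n = 3 each).

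For the MRN complex, the MRE11 to RAD50 ratio was 1.21, 1.45 and 1.10 in wild-type cells against 0.822, 0.778 and 0.974 after knockout. Because RAD50 shares 91.0% of its transcript with another gene model on the same strand, this ratio is as uncertain as the RAD50 level. The MRE11 to NBN ratio was 0.621, 0.619 and 0.605 in wild-type cells against 0.532, 0.452 and 0.526 after knockout. The ratio of EME1 to MUS81 was 0.524 ± 0.0299 in wild-type against 0.418 ± 0.0124 (SD, n = 3 each). Reads of the more abundant neighbour LRRC59 may enter the EME1 level, so this ratio is uncertain too. The ratio of USP1 to WDR48, the activating partner of USP1, was 1.69 ± 0.0925 in wild-type against 1.24 ± 0.0788 (SD, n = 3 each). WDR48 was called higher (log2 fold change 0.18, SE 0.07, edgeR adjusted p = 0.0349), but this call was lost in 8 of 15 alternatives. The ratios overlapped between genotypes for FANCD2 to FANCI, BARD1 to BRCA1, PALB2 to BRCA2, XRCC3 to RAD51C and RAD51D to XRCC2. FANCD2 to FANCI, the subunits of 1 clamp, had a ratio of 0.390 ± 0.0249 in wild-type against 0.378 ± 0.0239.

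**Figure D3:**
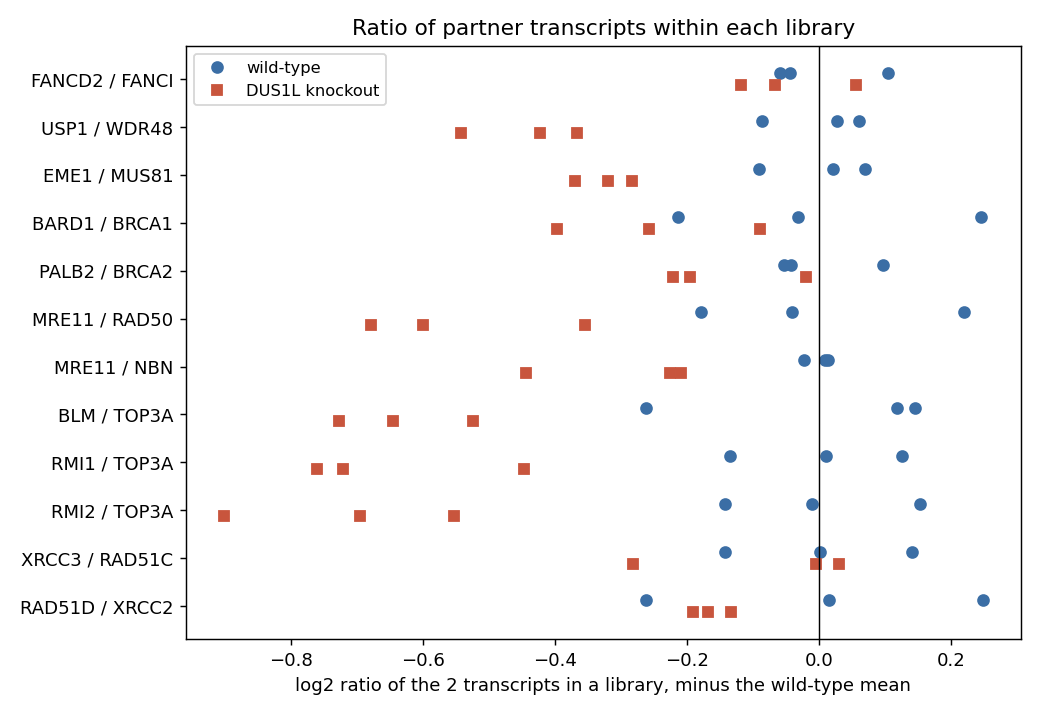
Within-library log2 ratio of a pair of partner transcripts minus its wild-type mean (x axis) for 12 pairs, with wild-type libraries as circles and knockout libraries as squares. Squares lie wholly left of the circles in 7 pairs, including all 3 pairs with TOP3A.

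A list of 65 other genes of these pathways had calls in both directions. Of its 64 tested genes, 23 were called lower (35.9%, against 20.7% of all genes tested) and 8 higher, a smaller share than the 20.5% of all genes tested. The median log2 fold change was -0.11. RTEL1, a helicase that dismantles recombination intermediates and protects telomeres, had the lowest value, at 15.6, 14.1 and 18.8 CPM in wild-type cells against 9.40, 7.74 and 8.69 CPM after knockout (log2 fold change -0.91, SE 0.13, edgeR adjusted p = 1.74e-05). Replication protein A coats single-stranded DNA, and its subunit genes RPA3 and RPA1 fell by 0.56 and 0.34 on the log2 scale. RPA2, which encodes the remaining subunit, was not called (log2 fold change -0.08, edgeR adjusted p = 0.335). H2AX, the histone variant marked at breaks, was at 173.4, 192.0 and 194.4 CPM in wild-type cells against 145.8, 130.5 and 135.8 CPM after knockout (log2 fold change -0.44, SE 0.06, edgeR adjusted p = 5.53e-06). TIMELESS, a fork protection gene, fell by 0.43 on the log2 scale. SLX1A, the nuclease partner of SLX4, fell by 0.58, but reads may be misassigned between it and its near-identical copy SLX1B. Exon overlaps with other genes were checked for the members alone. The estimated counts of RTEL1 were fractional in every library, so its level may also hold shared reads.

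The genes called higher included ERCC4 and BRAP. ERCC4, a subunit of the nuclease that unhooks crosslinks, was at 23.9, 23.0 and 22.1 CPM in wild-type cells against 29.8, 33.7 and 32.5 CPM after knockout, wholly above wild-type (log2 fold change 0.47, SE 0.09, edgeR adjusted p = 0.000183). BRAP, a cytoplasmic protein that binds BRCA1, was at 48.6, 47.9 and 43.6 CPM in wild-type cells against 65.2, 70.9 and 66.6 CPM after knockout (log2 fold change 0.53, SE 0.07, edgeR adjusted p = 3.64e-06). The remaining genes called higher, named after their values were seen, were HUS1, a subunit of the checkpoint clamp, the helicase gene HELQ, the recombination genes SFR1 and PSMC3IP, TOP3A and WDR48. The PSMC3IP call was lost without knockout replicate 1 (edgeR adjusted p = 0.077) or knockout replicate 3 (edgeR adjusted p = 0.0575). In all 15 alternatives, 13 genes of the list were called lower and 5 higher. Those lower ones not named above, listed after their values were seen, were BABAM1, ETAA1, PARPBP, RHNO1, SEM1, SPIDR and WEE1.

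Lists of related genes are given from the same fit, without a test between lists, and are read against the 20.7% of all genes called lower and the 20.5% called higher. End joining genes had 5 of 19 called lower and 3 higher (median log2 fold change -0.04), near the shares over all genes, and excision and mismatch repair genes 12 of 30 lower and 5 higher (median -0.14). Replication and S phase genes had 25 of 31 lower and 1 higher (median -0.35). All 30 mitosis genes were lower, 19 of them by the test against 1.5-fold (median -0.81). The 42 repair genes, with 47.6% called lower and a median of -0.24, lay between the other repair lists and the S phase list. Summed mitosis transcripts were at 4519.3 to 5000.0 CPM in wild-type cells and 2711.6 to 2760.0 CPM after knockout, and summed S phase transcripts at 2868.3 to 3032.0 and 2338.7 to 2453.1 CPM. In bulk RNA, fewer cells in S and G2 phase and less transcript per cell cannot be told apart, and the part of these shifts in the lower repair transcripts was not tested.

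**Figure D4:**
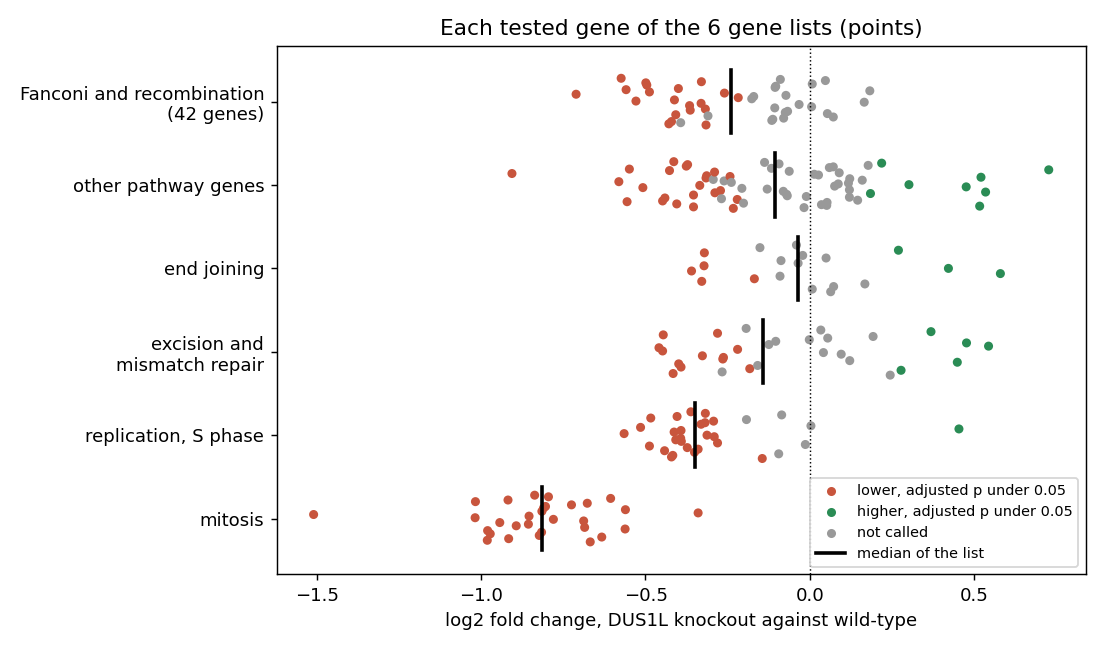
Log2 fold change (x axis) of each tested gene in 6 lists, with lower calls in red, higher calls in green, genes not called in grey and the median of each list as a black bar. The bar lies at -0.04 in end joining, at -0.24 in the 42 repair genes and at -0.81 in mitosis.

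Shorter transcripts were called lower more often, in the members and in all genes, without a test of the difference. Split at 3395 bases, the median canonical transcript length of the tested protein-coding genes, 11 of 19 shorter members (57.9%) and 9 of 23 longer members (39.1%) were called lower. For all tested protein-coding genes these shares were 27.1% and 19.1%. With a length correction in each library, 23 members were called lower and 0 higher. The log2 fold changes were then -0.66 for FANCL, -0.46 for UBE2T and -0.42 for RMI2. BARD1, EXO1 and FANCM joined the lower genes, at -0.35, -0.19 and -0.45.

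**Figure D5:**
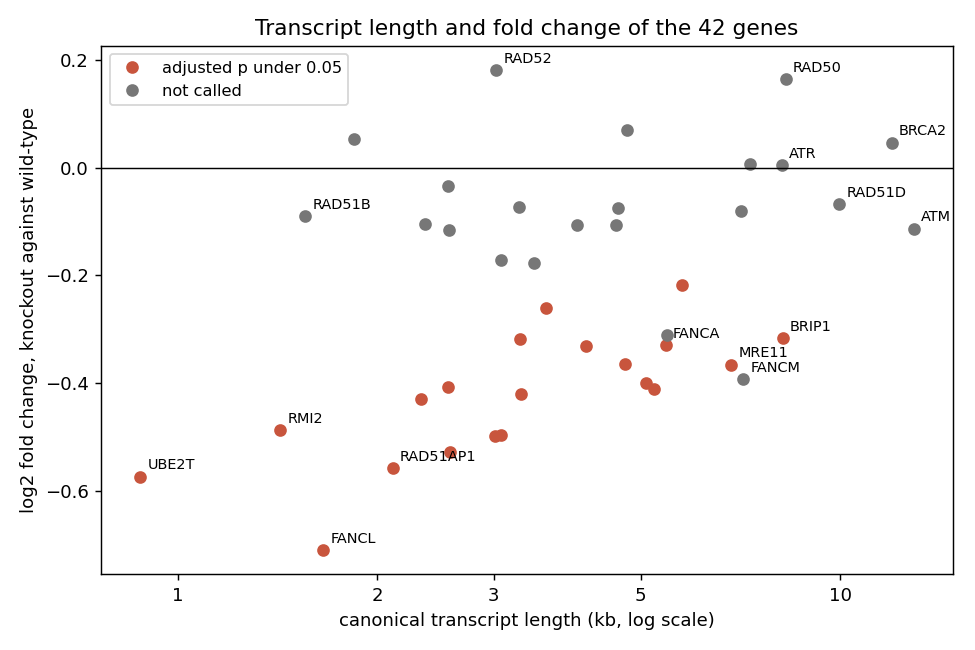
Log2 fold change (y axis) of the 42 genes against the length of their canonical transcript (x axis, kb, log scale), with called genes in red. The 3 lowest values belong to FANCL, UBE2T and RAD51AP1, all under 3 kb, and among transcripts over 8 kb BRIP1 was called while ATM, ATR, BRCA2, RAD50 and RAD51D were not.

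Promoter sequences of the members were searched for letters known from cell cycle genes. RefSeq windows from 250 bases before to 50 bases after the start (GRCh38.p14) were matched by symbol for 38 of the 42 members and 11573 tested genes. E2F letters (TTTCCCGC, TTTGGCGC, TTTCGCGC or TTTGCCGC, either strand) were in 4 of 18 lower members and 3 of 20 members that were not called, against 5.34% of all windows and 15 of 27 windows of S phase genes. Cell cycle homology letters (TTTGAA or TTCGAA, either strand) were in 3 of 18 lower members and 2 of 20 members that were not called, against 10.7% of all windows and 18 of 25 windows of mitosis genes. CCAAT, the letters read by NF-Y, (either strand) was in 9 of 18 lower members and 7 of 20 members that were not called, against 36.9% of all windows. It was in 17 of 27 windows of S phase genes and 21 of 25 windows of mitosis genes. E2F letters were in 3 of 25 windows of mitosis genes, and cell cycle homology letters in 2 of 27 windows of S phase genes. A match describes letters only and is no evidence of binding.

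The stretches below, read along each gene from 5′ to 3′, show how the letters vary among lower members and in a member that was not called. They lie within the 200 bases before the start, leave out annotated exons and have matched letters in capitals. UBE2T (chr1:202341985-202342136, minus strand) has TTTGAA and a pair of CCAAT letters. USP1 (chr1:62436849-62437048, plus strand) has TTTGAA on the other strand, written TTCAAA. BLM (chr15:90717146-90717345, plus strand) has CCAAT at 3 places, written ATTGG where it lies on the other strand, and RMI1 (chr9:83980632-83980797, plus strand) has E2F letters at 1 place. FANCE (chr6:35452138-35452337, plus strand) fell and has none of these letters in its window. FANCC (chr9:95317716-95317909, minus strand) was not called and has E2F letters at 2 places.
UBE2T: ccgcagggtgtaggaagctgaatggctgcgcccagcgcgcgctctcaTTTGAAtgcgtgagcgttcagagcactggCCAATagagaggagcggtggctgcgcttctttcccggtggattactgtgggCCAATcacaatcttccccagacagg
USP1: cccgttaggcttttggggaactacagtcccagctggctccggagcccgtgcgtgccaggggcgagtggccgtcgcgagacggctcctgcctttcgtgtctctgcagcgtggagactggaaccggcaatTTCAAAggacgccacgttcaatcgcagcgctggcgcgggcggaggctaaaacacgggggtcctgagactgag
BLM: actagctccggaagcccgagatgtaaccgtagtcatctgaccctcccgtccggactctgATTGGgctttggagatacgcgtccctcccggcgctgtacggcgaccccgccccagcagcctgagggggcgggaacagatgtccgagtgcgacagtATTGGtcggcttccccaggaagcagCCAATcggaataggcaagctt
RMI1: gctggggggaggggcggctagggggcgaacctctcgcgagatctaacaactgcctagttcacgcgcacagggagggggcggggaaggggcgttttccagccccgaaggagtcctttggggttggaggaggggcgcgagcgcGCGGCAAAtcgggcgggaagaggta
FANCE: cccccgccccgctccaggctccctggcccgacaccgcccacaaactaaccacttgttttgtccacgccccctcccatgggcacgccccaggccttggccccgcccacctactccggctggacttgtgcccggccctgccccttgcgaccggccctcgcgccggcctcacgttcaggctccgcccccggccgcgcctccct
FANCC: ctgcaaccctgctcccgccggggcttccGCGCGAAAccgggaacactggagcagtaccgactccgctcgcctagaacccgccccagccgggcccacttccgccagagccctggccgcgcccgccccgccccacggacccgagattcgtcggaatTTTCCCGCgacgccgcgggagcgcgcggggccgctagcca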

How the data were processed

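Total RNA of 6 A375 libraries was sequenced as paired ends on a BGISEQ-500 platform, per the labels' protocols. The authors deposited 1 table of expected counts (estimated counts per gene, partly fractional), which carry no normalization that the values show. GRCh38 and hg38 are the builds in the submitters' processing notes, while sources used here name no aligner, counting software, strandedness or annotation release. Of 63086 identifiers, 99.1% matched GENCODE release 44, which gave symbols, positions and canonical transcript lengths.

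Counts were rounded, filtered with filterByExpr (minimum count 10), scaled by TMM and compared between genotypes, taken from the sample titles, with edgeR 4.0.16 in R 4.3.3 (robust quasi-likelihood fit, group as the only term, two-sided, Benjamini-Hochberg adjustment over all 16046 genes, threshold 0.05). The glmTreat test asked for more than 1.5-fold. Standard errors come from the fold change and its F statistic. The procedure was tested on simulated data in which 200 of 16046 genes were changed. There 12.3% of calls were false, more than the nominal share. Of changes of 1.25-fold 40% were recovered, and of 1.5-fold 58%. In the real data 20.7% of genes were called lower and 20.5% higher, so these rates need not hold for the real calls. Alternatives were DESeq2 1.42.0, limma-voom (limma 3.58.1), other scalings and filters, each library left out, a replicate block, and transcript length and GC offsets. The counting floor covers counting error only. No pair of libraries agreed within sampling noise.

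The members, gene lists and tests were chosen with earlier results of these data known. All members were accounted for, with values in every library at least for the called members of each role with the lowest and highest fold change, and up to 8 called genes of the wider pathway list with the smallest p were named.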

Additional observations from a re-analysis of the deposited data

How the results depend on the processing

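The count of members called lower ranged from 18 to 24 over 15 alternatives. None of these 15 called a member higher, and none called a member by the test against 1.5-fold. In each of them 18 members were called lower, which are the called members other than FANCF and BRIP1. The count of 24 came with the length and GC offset, chosen after seeing the data, and that of 18 with the settings library size alone and without knockout replicate 1. Leaving out 1 library at a time gave 18 to 21 members lower, 17 to 22 other pathway genes lower and 5 to 9 higher, the lowest without knockout replicate 3 (against 8 with all libraries). The cause was not tested. The median log2 fold change of the members stayed between -0.28 and -0.19 over the 15 alternatives, and DUS1L was called lower in each.

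Libraries of the 2 genotypes, same-numbered or not, did not deviate together (correlations from -0.0296 to 0.0255). The numbers thus gave no sign of pairing, though this cannot show whether the libraries were prepared in matched sets. With the replicate number as a block, 21 members were called lower and 0 higher, FANCM being added (log2 fold change -0.41, edgeR adjusted p = 0.0427), and 22 and 7 other pathway genes were called lower and higher. The DUS1L log2 fold change with the block was -0.51. RAD51B, the member with the lowest counts, had the widest 95% interval.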
